A study of Mus musculus with 9 samples.

Results

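Oligodendrocyte lineage markers were read in 9 RNA-seq libraries of green fluorescent cells picked by hand from mouse cortex. The set held 8 genes, all among the 23319 gene symbols counted, and was chosen by name: 5 markers of progenitors (Olig1, Olig2, Pdgfra, Sox10 and Ptprz1) and 3 myelin genes (Mbp, Cnp and Mog). Each library was made from 150 cells of layer 2/3 strips of medial prefrontal and anterior cingulate cortex at postnatal day 5. All mice carried Ai47, a reporter that gives green fluorescence after Cre recombination, and 3 libraries came from each of 3 lines. Nkx2.1-CreER;Ai47 mice carried a tamoxifen-inducible Cre and were given it on embryonic day 17, as is done to mark chandelier cells, interneurons whose synapses lie on the axon initial segment. SOM-Cre;Ai47 mice mark cells that have used the somatostatin gene, and VIP-Cre;Ai47 mice mark cells that have used the vasoactive intestinal peptide gene; the labels give neither of them tamoxifen. Libraries are named by line (Nkx2.1, SOM or VIP) and by the replicate number in the label. Nothing in the labels ties a library to 1 animal, so the tests measure the spread between samples, which may be technical. Line and tamoxifen cannot be told apart.

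Oligodendrocytes wrap axons in myelin and descend from dividing progenitors that spread through the brain before and after birth. Progenitors are recognised by the transcription factors Olig1, Olig2 and Sox10 and by the growth factor receptor Pdgfra, and their descendants switch on myelin genes such as Mbp, Cnp and Mog. In the mouse forebrain an early group of these progenitors arises from the ventral domains that express Nkx2-1, the same domains that give rise to many cortical interneurons. Several markers are not confined to the lineage: Ptprz1 is also made by astrocytes and radial glia, Pdgfra by fibroblasts of the meninges, and the Mbp gene also yields the golli transcripts of neurons.

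The libraries held 6484488 to 12465997 reads in genes, and 8180 to 11490 genes had a read, the fewest in Nkx2.1 replicate 2. Levels are CPM, the reads of a gene scaled so that the genes of every library have the same sum, and 3 reads, taken as the floor, came to 0.241 to 0.463 CPM. Every library carried GABAergic interneuron markers, but not all of them evenly. Slc32a1 stood at 8.51 CPM or less in Nkx2.1, against 15.5 CPM or more in SOM and 54.5 CPM or more in VIP. Dlx6 stood at 0.758 CPM or less in Nkx2.1, against 4.46 CPM or more in SOM and 8.30 CPM or more in VIP. The summed level of 10 genes, among them Sst and Vip, the genes behind the SOM and VIP lines, was between 2729.7 and 5516 CPM. Against that, Olig1, Olig2 and Sox10 together summed to 18.1, 0 and 6.99 CPM in Nkx2.1 replicates 1, 2 and 3, to 17.4, 0.925 and 0 CPM in those of SOM and to 0.991, 0 and 0.262 CPM in those of VIP. The transcription factors that define the lineage thus stood below 1 CPM in 6 of the 9 libraries, while Ptprz1 and Mbp had reads in all 9. In these bulk samples fewer cells of a type and less RNA per cell cannot be told apart.

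Ptprz1 had the highest level of all 8 members per kilobase of exon, with a mean of 26.2 CPM per kilobase over the 9 libraries. On the same per-length scale Cnp followed at a mean of 16.2, Mbp at 7.31, Mog at 6.83, Pdgfra at 4.65, Sox10 at 0.923, Olig2 at 0.703 and Olig1 at 0.170 CPM per kilobase. The ranges of neighbours in this order overlapped, from 0.287 to 58.5 for Ptprz1 and from 0 to 71.0 CPM per kilobase for Cnp.

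**Figure D1:**
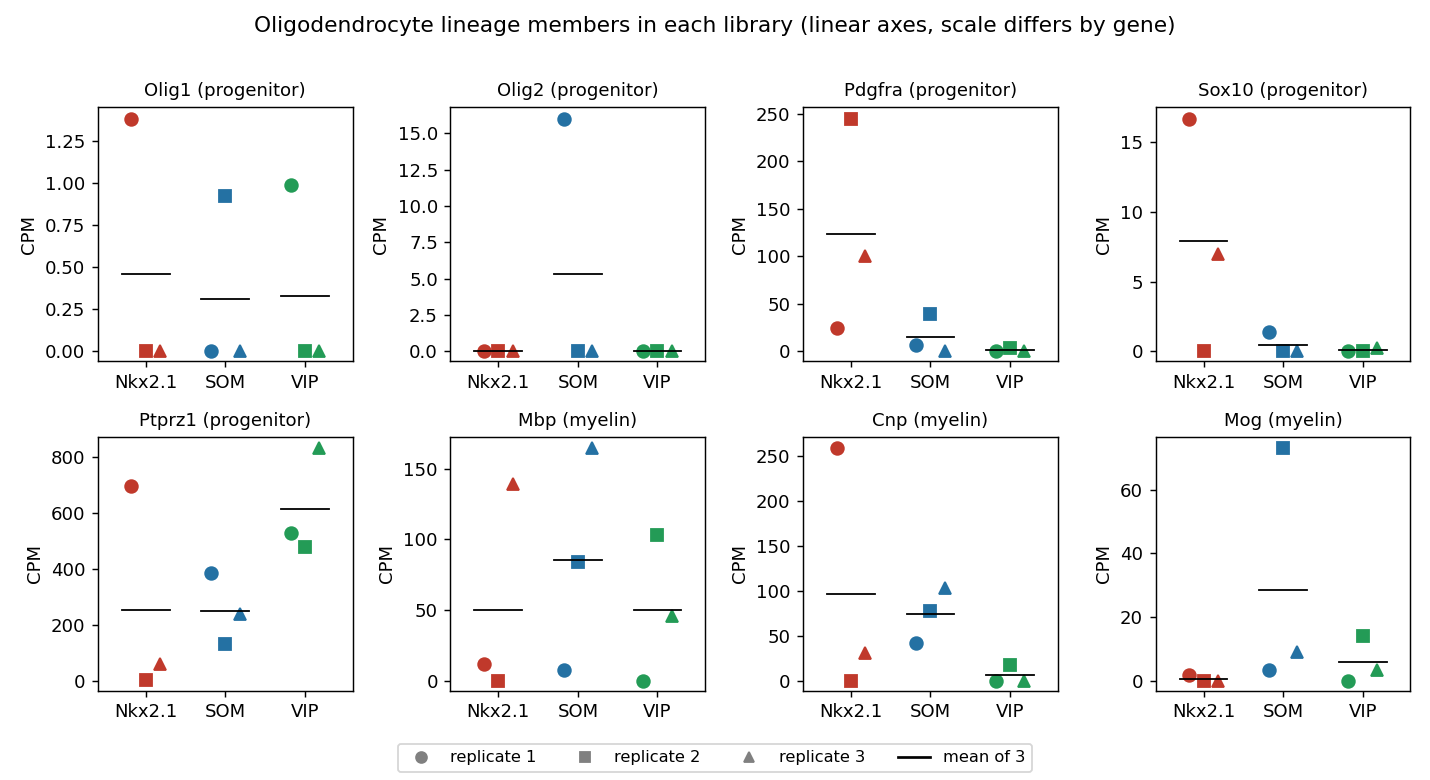
CPM of each member (vertical axis, linear, its scale set per gene) in the 3 libraries of each line (horizontal axis), with a symbol per replicate and a bar at the mean of 3. In Nkx2.1 Pdgfra lies between 24.8 and 245 CPM, above all VIP libraries. Olig2 is above 0 only in SOM replicate 1.

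Olig1 (chromosome 16, 91269772 to 91271933, plus strand, GRCm38) and Olig2 (chromosome 16, 91225457 to 91228677, plus strand) are neighbouring genes for basic helix-loop-helix factors, and Olig2 is needed to specify the lineage. Olig1 had 15, 0 and 0 reads in Nkx2.1 replicates 1 to 3, against 0, 6 and 0 reads in SOM replicates 1 to 3 and 8, 0 and 0 reads in VIP replicates 1 to 3, at most 1.38 CPM. The lines overlapped, each with 1 library above 0. Olig2 had 147 reads (16.01 CPM) in SOM replicate 1 and 0 in the other 8 libraries. Pooled over the line, that made SOM at least 71.1-fold above Nkx2.1 and at least 57.4-fold above VIP by counting error alone. The floor was 3 reads over each line at 0. These values rest on 1 library, since SOM replicates 2 and 3 also had 0 reads, and do not bound the difference between lines. Neither gene met the filter on low counts, so neither entered the test. Genes with a mean level within 1.5-fold of that of Olig2 had a median of 6 libraries at 0, against 8 for Olig2, and for Olig1 these values were 7 and 6.

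Sox10 (chromosome 15, 79154908 to 79165240, minus strand), an HMG-box factor that acts with Olig2 and later drives myelin genes, had 181, 0 and 83 reads in Nkx2.1 replicates 1 to 3. That came to 16.7, 0 and 6.99 CPM, against 1.42, 0 and 0 CPM in the SOM replicates and 0, 0 and 0.262 CPM in the VIP replicates. The highest levels were those of Nkx2.1 replicates 1 and 3, but replicate 2 had no read, so the groups overlapped. The fitted log2 fold of Nkx2.1 was 4.26 ± 2.78 (SE) over SOM (edgeR quasi-likelihood test, Benjamini-Hochberg adjusted p = 0.67) and 6.54 ± 3.09 over VIP (edgeR adjusted p = 0.355). Since the VIP libraries held only 3 reads, the fitted fold depends on the prior count. Pooled reads gave a ratio of 71.1 for Nkx2.1 over VIP (95% exact counting interval 24.05 to 347) and of 5.08 for SOM over VIP (1.39 to 27.8), which ignore the spread between libraries. For SOM over VIP the fitted fold was 2.27 ± 2.55 on the log2 scale (edgeR adjusted p = 1.00), and without SOM replicate 1 it was -2.94. Without that library the fold of Nkx2.1 over SOM was 9.49, and without Nkx2.1 replicate 1 it was 2.88.

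Pdgfra (chromosome 5, 75152292 to 75198215, plus strand) encodes the receptor through which platelet-derived growth factor keeps progenitors dividing. It stood at 24.8, 245 and 100.01 CPM in Nkx2.1 replicates 1 to 3, against 6.21, 39.5 and 0 CPM in the SOM replicates and 0.372, 3.60 and 0 CPM in the VIP replicates. All Nkx2.1 libraries lay above all VIP libraries, and Nkx2.1 and SOM overlapped through Nkx2.1 replicate 1 and SOM replicate 2. The mean was 123 ± 112 CPM in Nkx2.1 (SD, n = 3), 15.2 ± 21.2 CPM in SOM and 1.32 ± 1.98 CPM in VIP, a ratio of means of 93.2 for Nkx2.1 over VIP and 8.10 for Nkx2.1 over SOM. Without Nkx2.1 replicate 2, which gave 66.3% of the line's summed level, the Nkx2.1 mean was 62.4 CPM. The fitted log2 fold over VIP was 6.71 ± 2.64 (edgeR adjusted p = 0.279) and did not pass the threshold of 0.05, nor did it in any of the 9 edgeR fits without 1 library (adjusted p = 0.264 to 0.435). The DESeq2 Wald test did call it (log2 6.79, adjusted p = 0.008). Over SOM the fitted log2 fold was 3.14 ± 2.23 (edgeR adjusted p = 0.729), and for SOM over VIP it was 3.57 ± 2.28 (edgeR adjusted p = 1.00). Leaving out 1 library gave 5.71 to 9.46 for Nkx2.1 over VIP, 2.14 to 5.41 for Nkx2.1 over SOM and 1.299 to 6.30 for SOM over VIP.

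Other progenitor genes were mixed in the library with the most Pdgfra. Nkx2.1 replicate 2, at 245 CPM of Pdgfra, had 0 reads of Olig1, Olig2 and Sox10 and also 0 of Cspg4, the NG2 proteoglycan of progenitors, where 3 reads would have been 0.241 CPM. The same library had the most Pcdh15 of the 9 (359 CPM) and the most Lhfpl3 of its line (277 CPM). Its sum over 16 further progenitor genes was 664 CPM, most of it from this pair, against 548 and 934 CPM in Nkx2.1 replicates 1 and 3. Of the 16 genes, 6 had reads in replicate 2, against 10 in each of replicates 1 and 3. Of all genes, 8180 had reads in replicate 2, against 10576 and 9484 in replicates 1 and 3. The 7 fibroblast markers had 0 reads in Nkx2.1 replicates 2 and 3 and summed to 0.737 CPM in replicate 1, where Col1a1 was the marker with reads and Col1a2, Col3a1, Dcn, Lum, Igf2 and Slc6a13 were at 0. Of 10 endothelial and mural markers, 1 had a read in replicate 1 (0.0922 CPM in all) and none in replicates 2 and 3. The fibroblast sum ranged from 0 to 16.99 CPM in SOM libraries and from 0 to 2.36 CPM in VIP libraries, and the endothelial and mural sum from 0 to 18.4 CPM in SOM libraries and was 0 in VIP libraries. Nkx2.1 replicate 2 had the highest summed level of GABAergic markers in its line, 5228 CPM against 2729.7 and 4113 CPM in replicates 1 and 3. The strand setting of the counting is not given in the sources used here. GENCODE M21 lists a pair of genes on the minus strand whose exons share 456 and 166 of the 10024 exon bases of Pdgfra, so reads of these could not be told apart from Pdgfra reads.

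Ptprz1 (chromosome 6, 22875502 to 23052916, plus strand), a receptor-type phosphatase of progenitors that is also typical of astrocytes and radial glia, had its highest mean in VIP. It stood at 697, 4.09 and 59.1 CPM in Nkx2.1 replicates 1 to 3, against 384, 132 and 238 CPM in the SOM replicates and 530.3, 481 and 833 CPM in the VIP replicates. The 3 VIP libraries lay above the 3 SOM libraries, and the Nkx2.1 libraries spanned almost the whole range. Means were 254 ± 385 CPM in Nkx2.1, 251 ± 127 CPM in SOM and 615 ± 190.5 CPM in VIP (SD, n = 3). The fitted log2 fold of SOM over VIP was -1.25 ± 1.26 (edgeR adjusted p = 1.00), that of Nkx2.1 over VIP -0.92 ± 1.25 (edgeR adjusted p = 0.831) and that of Nkx2.1 over SOM 0.33 ± 1.24 (edgeR adjusted p = 0.987). Without Nkx2.1 replicate 1, which held 91.7% of the line's summed level, the fold over SOM turned to -2.96 (edgeR adjusted p = 0.293) and the fold over VIP was -4.20 (edgeR adjusted p = 0.138).

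Astrocyte and radial glia markers had their highest sum in Nkx2.1 replicate 1, the library of its line with the most Ptprz1. In that library 16 of 17 such markers had reads and they summed to 3373 CPM, with S100b at 0. They summed to 649 and 269.9 CPM in Nkx2.1 replicates 2 and 3, where 7 markers each had reads. Of all genes, 10576 had reads in replicate 1, against 8180 and 9484 in replicates 2 and 3. The sum ranged from 105 to 290.4 CPM in the SOM libraries and from 396 to 815 CPM in the VIP libraries. Elsewhere its order differed from that of Ptprz1: Nkx2.1 replicate 2 had less Ptprz1 than replicate 3 (4.09 against 59.1 CPM) but the higher sum. VIP replicate 3, with the most Ptprz1 of all libraries, had the lowest sum of its line. Slc1a3, the glial glutamate transporter, stood at 1339, 277 and 4.97 CPM in Nkx2.1 replicates 1 to 3. Fabp7, a fatty acid binding protein of radial glia, stood at 1006, 309 and 85.4 CPM. Not every marker was highest in replicate 1 of the line. Gfap, an intermediate filament of astrocytes, stood at 23.9, 40.8 and 0 CPM in Nkx2.1 replicates 1 to 3, Vim, another such filament, at 0.829, 16.4 and 0 CPM, and Hopx, of radial glia, at 0.553, 0 and 11.2 CPM. The part of these cells in the Ptprz1, Sox10 and Cnp levels of Nkx2.1 replicate 1 was not tested.

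**Figure D2:**
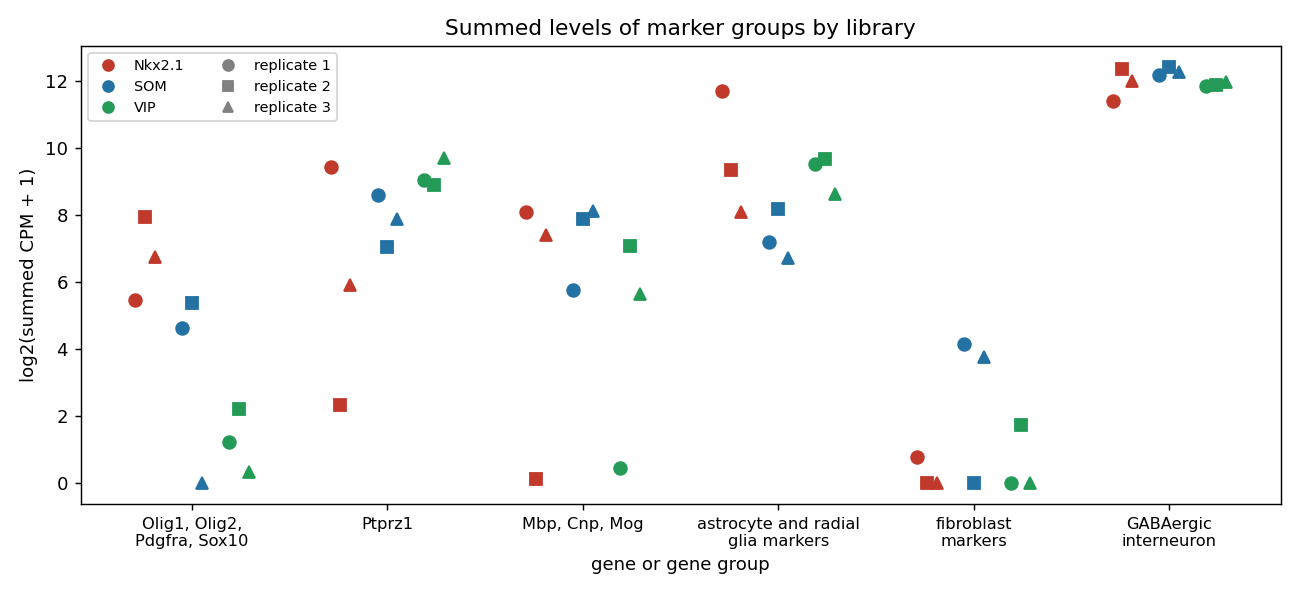
Summed level on a log2(CPM + 1) scale (vertical axis) of marker groups (horizontal axis) in each library, with a colour per line and a symbol per replicate. All 5 progenitor members sum to between 166 and 740 CPM in Nkx2.1 and between 484 and 833 CPM in VIP, but without Ptprz1 to between 42.9 and 245 CPM in Nkx2.1 and between 0.262 and 3.60 CPM in VIP, while the GABAergic sum lies between 2729.7 and 5516 CPM throughout.

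Mbp, Cnp and Mog together summed to 272, 0.0802 and 169 CPM in Nkx2.1 replicates 1 to 3, to 53.0, 235 and 276 CPM in the SOM replicates and to 0.372, 135 and 49.2 CPM in the VIP replicates. The line means were 147 ± 137 CPM in Nkx2.1, 188 ± 119 CPM in SOM and 61.6 ± 68.3 CPM in VIP (SD, n = 3), and all lines overlapped. The Nkx2.1 library with the most Pdgfra had 1 read of these genes in all, and VIP replicate 1 had 3. The 5 progenitor members together summed to 740, 249 and 166 CPM in Nkx2.1 replicates 1, 2 and 3, to 408, 172 and 238 CPM in those of SOM and to 532, 484 and 833 CPM in those of VIP. Their line means were 385 ± 310 CPM in Nkx2.1, 273 ± 122 CPM in SOM and 616 ± 189 CPM in VIP (SD, n = 3), highest in VIP, and most of this sum was Ptprz1 in all libraries but Nkx2.1 replicates 2 and 3. The 4 progenitor members without Ptprz1 summed to 132 ± 103 CPM in Nkx2.1, 21.3 ± 20.3 CPM in SOM and 1.74 ± 1.70 CPM in VIP. This sum was lowest in VIP, so the order of the lines turns on Ptprz1. In Nkx2.1 most of it was Pdgfra, with a mean of 123 CPM. Olig1, Olig2 and Sox10 alone summed to 8.35 ± 9.11 CPM in Nkx2.1, 6.12 ± 9.80 CPM in SOM and 0.418 ± 0.514 CPM in VIP. In Nkx2.1 replicate 1 both the sum of all 5 and the myelin sum were the highest of the line. No order of lines was tested.

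Mbp (chromosome 18, 82475146 to 82585637, plus strand), which encodes the basic protein that compacts the myelin membrane, stood at 12.3, 0.0802 and 139 CPM in Nkx2.1 replicates 1 to 3. In the SOM replicates it stood at 7.51, 84.2 and 164 CPM and in the VIP replicates at 0.248, 103 and 45.7 CPM. Each line thus held a library at 12.3 CPM or less and another above 100 CPM, and the lines overlapped fully. The fitted log2 folds were -0.72 ± 2.06 for Nkx2.1 over SOM, 0.14 ± 2.05 for Nkx2.1 over VIP and 0.85 ± 2.06 for SOM over VIP (edgeR adjusted p = 0.979, 0.99 and 1.00). All 3 turned sign when 1 library was left out: the first was 0.20 and the third -0.065 without SOM replicate 3, and the second -2.596 without Nkx2.1 replicate 3 and -0.42 without VIP replicate 1. Gene counts do not separate the golli transcripts from those of myelin.

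Cnp (chromosome 11, 100574904 to 100591729, plus strand) encodes a phosphodiesterase of the myelin sheath that appears early in the lineage. It stood at 258, 0 and 30.5 CPM in Nkx2.1 replicates 1 to 3, against 42.0, 77.9 and 103 CPM in the SOM replicates and 0.124, 17.9 and 0 CPM in the VIP replicates. The SOM libraries lay above all VIP libraries, and the Nkx2.1 libraries overlapped both lines. SOM averaged 74.2 ± 30.5 CPM against 5.998 ± 10.3 CPM in VIP (SD, n = 3), and the fitted log2 fold was 3.71 ± 2.599 (edgeR adjusted p = 1.00). Nkx2.1 averaged 96.2 ± 141 CPM, with a log2 fold of 4.39 ± 2.68 over VIP and 0.68 ± 2.34 over SOM (edgeR adjusted p = 0.512 and 0.984). Over SOM the fold turned to -2.27 without Nkx2.1 replicate 1, the library with the high glial sum. Over VIP it was 1.46 without that library and 10.81 without VIP replicate 2, where SOM over VIP was 10.06. Exons of Cnp and of Dnajc7, a chaperone gene on the other strand, share 154 of the 3639 exon bases of Cnp. Dnajc7 had 1655 to 4389 reads in every library, also in Nkx2.1 replicate 2 and VIP replicate 3, where Cnp had 0.

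Mog (chromosome 17, 37010743 to 37023398, minus strand), which encodes a glycoprotein of the outermost myelin layer and is a late marker, was lowest in Nkx2.1. It stood at 1.84, 0 and 0 CPM in Nkx2.1 replicates 1 to 3, against 3.48, 72.9 and 8.97 CPM in the SOM replicates and 0, 14.0 and 3.50 CPM in the VIP replicates. The Nkx2.1 libraries lay below all SOM libraries and overlapped the VIP libraries. SOM replicate 2 held 85.4% of the SOM level, and the SOM mean was 28.5 ± 38.6 CPM, against 0.614 ± 1.06 CPM in Nkx2.1 and 5.85 ± 7.31 CPM in VIP (SD, n = 3). The fitted log2 fold of Nkx2.1 was -5.16 ± 2.98 over SOM (edgeR adjusted p = 0.587) and -2.82 ± 2.67 over VIP (edgeR adjusted p = 0.734). For SOM over VIP it was 2.34 ± 2.62 (edgeR adjusted p = 1.00). With SOM replicate 2 left out the fold over SOM was -2.999, and with Nkx2.1 replicate 1 left out it was -11.09; that over VIP was -1.03 without VIP replicate 2 and -8.72 without Nkx2.1 replicate 1. The fold of SOM over VIP was 0.17 without SOM replicate 2 and 4.08 without VIP replicate 2.

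**Figure D3:**
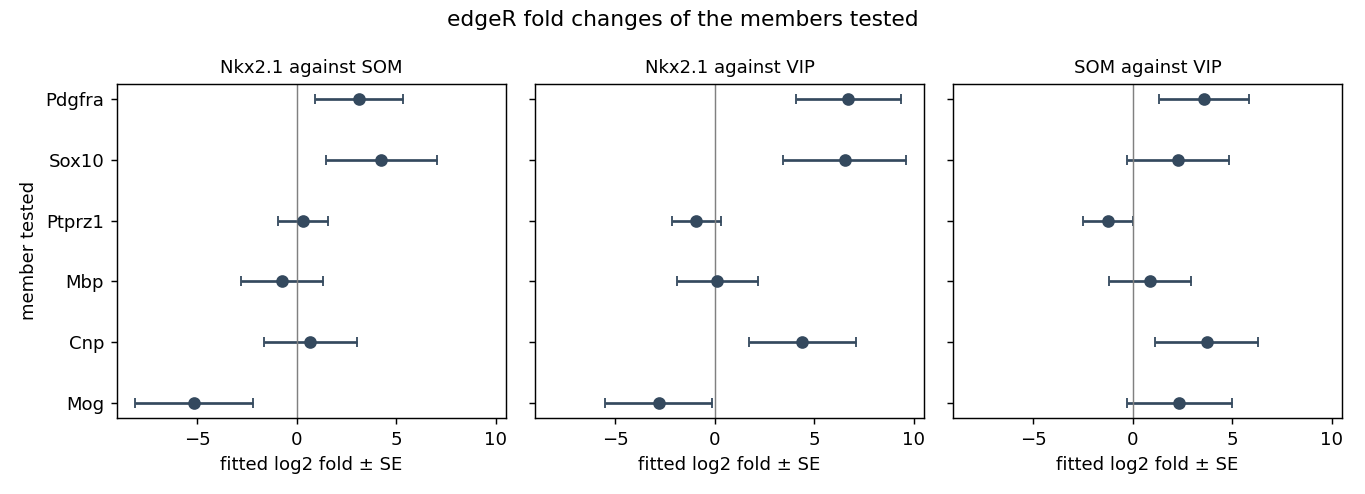
Fitted log2 fold (horizontal axis; edgeR, the first-named line over the second) with its standard error for the 6 members tested (vertical axis) in the 3 comparisons. Pdgfra over VIP, at 6.71 ± 2.64, is the largest in size; no member passed the threshold.

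Over the whole set, 6 of the 8 members met the filter and were tested, and none was called in any comparison by edgeR at an adjusted p of 0.05. Among all 10728 genes tested, 0.0932% were called in Nkx2.1 against SOM, 0.308% in Nkx2.1 against VIP and 0.0746% in SOM against VIP, so calls were rare throughout. At an unadjusted p under 0.05 the members gave 0 in Nkx2.1 against SOM, 1 in Nkx2.1 against VIP (Pdgfra, higher) and 0 in SOM against VIP, where all genes gave 11.3%, 15.2% and 6.99%. The DESeq2 test called 0, 1 and 0 members in the same order, beside 7.62%, 12.7% and 3.82% of the genes it tested. Of the 6 members tested the libraries did not overlap for 1 in Nkx2.1 against SOM (Mog), for 1 in Nkx2.1 against VIP (Pdgfra) and for 2 in SOM against VIP (Ptprz1 and Cnp), beside 20.4%, 20.7% and 19.6% of the genes tested. Olig1 and Olig2, not tested, overlapped in all comparisons. With so few members, these counts do not set them apart from the background. The 2 comparisons with VIP share the VIP libraries, and those with Nkx2.1 share the Nkx2.1 libraries.

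The median fitted log2 fold of the 3 tested progenitor members was 3.14 in Nkx2.1 over SOM, 6.54 in Nkx2.1 over VIP and 2.27 in SOM over VIP. For the 3 myelin members it was -0.72, 0.14 and 2.34, and over all genes tested -0.0073, 0.0028 and -0.0037. The filter let members pass through the line where they were high, so these medians describe the tested members alone.

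Other genes of the lineage gave the same uneven picture from library to library. Among 16 further progenitor genes, 14 had a read in some library and 8 were tested; C1ql1 and Nkx2-2 had none in all 9. None was called in any comparison by edgeR. At an unadjusted p under 0.05 there was 1 higher and 0 lower in Nkx2.1 against SOM, 2 higher and 0 lower in Nkx2.1 against VIP and 2 higher and 1 lower in SOM against VIP. Among all genes tested the shares higher and lower were 2.92% and 8.38% in the first comparison, 5.73% and 9.43% in the second and 4.63% and 2.36% in the third. The median log2 fold of the 8 tested progenitor genes was 0.68, 2.38 and 1.75 in these comparisons. Over all genes tested it was -0.0073, 0.0028 and -0.0037. Here too the filter let genes pass through the line where they were high, so these medians describe the tested genes alone. The summed level was 715 ± 198 CPM in Nkx2.1, 482 ± 222 CPM in SOM and 233 ± 47.1 CPM in VIP (SD, n = 3), and the Nkx2.1 libraries, at 548 CPM or more, lay above all VIP libraries, at 281 CPM or less. Much of this sum was Pcdh15 and Lhfpl3, with means of 207 and 181 CPM in Nkx2.1, 151 and 162 CPM in SOM and 34.5 and 69.1 CPM in VIP. In Nkx2.1 replicate 2 they made up most of it. SOM replicate 3 summed to 738 CPM, with Pcdh15 at 303 and Lhfpl3 at 291 CPM. That library had 0 reads of Pdgfra, Sox10 and Cspg4. Nkx2.1 replicate 1, with the most Sox10, had 3.32 CPM of Pcdh15 and 2.30 CPM of Lhfpl3. The sum thus did not follow Pdgfra, Sox10 and Cspg4 from library to library.

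Cspg4 had the same order of line means as Pdgfra but not the same libraries. It stood at 156, 0 and 61.3 CPM in Nkx2.1 replicates 1 to 3, against 67.9, 77.6 and 0 CPM in the SOM replicates and 0.124, 0 and 0 CPM in the VIP replicates. It had 1 read over the VIP libraries, and neither Nkx2.1 against VIP (edgeR adjusted p = 0.233) nor SOM against VIP (edgeR adjusted p = 0.525) passed the threshold. The most abundant genes of this list were Lhfpl3, a tetraspan membrane gene of progenitors, and Pcdh15, a protocadherin. Lhfpl3 stood at 2.30, 277 and 263 CPM in Nkx2.1 replicates 1 to 3, against 139, 54.9 and 291 CPM in the SOM replicates and 19.3, 123 and 65.5 CPM in the VIP replicates. Pcdh15 stood at 3.32, 359 and 259.9 CPM in the Nkx2.1 replicates, against 84.4, 66.3 and 303 CPM in the SOM replicates and 0.743, 34.8 and 67.8 CPM in the VIP replicates. Both were thus lowest of their line in Nkx2.1 replicate 1, the library with the most Sox10 and Cspg4. Vcan, which encodes the matrix proteoglycan versican, ranged from 14.3 to 123 CPM in Nkx2.1 and from 53.1 to 119 CPM in SOM libraries, above the VIP libraries at 0 to 11.9 CPM, and was not called. Not all genes of the list were lowest in VIP. Cacng4, a regulatory subunit of AMPA receptors, stood at 0, 0 and 11.3 CPM in Nkx2.1 replicates 1 to 3, against 7.51, 15.9 and 15.7 CPM in the SOM replicates and 83.8, 48.2 and 22.3 CPM in the VIP replicates, which lay above all others (edgeR adjusted p = 0.538 for Nkx2.1 and 1.00 for SOM against VIP). Sox8, a relative of Sox10, stood at 94.2, 0 and 0 CPM in the Nkx2.1 replicates and at 32.7, 66.0 and 57.0 CPM in the VIP replicates and had no read in SOM.

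Several genes of progenitors about to differentiate were each read in few libraries, which were only partly the same. Gpr17, a receptor of such cells, stood at 30.3 CPM in Nkx2.1 replicate 1 and 14.3 CPM in SOM replicate 1 and had 0 reads in the other 7 libraries. These are the libraries with the 2 highest sums of Olig1, Olig2 and Sox10. Bcas1, of early myelinating cells, had 75 reads in Nkx2.1 replicate 1, 99 in Nkx2.1 replicate 3 and 0 elsewhere. Both are the libraries with the most Sox10. Other genes of committed cells lay partly elsewhere. Zfp488, a zinc finger factor of the lineage, stood at 17.4 CPM in SOM replicate 2, 3.61 CPM in SOM replicate 3 and 0.553 CPM in Nkx2.1 replicate 1. Tcf7l2, a Wnt pathway factor, stood at 10.04 CPM in VIP replicate 1. The transcript 9630013A20Rik stood at 4.47 CPM in Nkx2.1 replicate 3, which also had Bcas1, and at 2.73 CPM in VIP replicate 1.

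**Figure D4:**
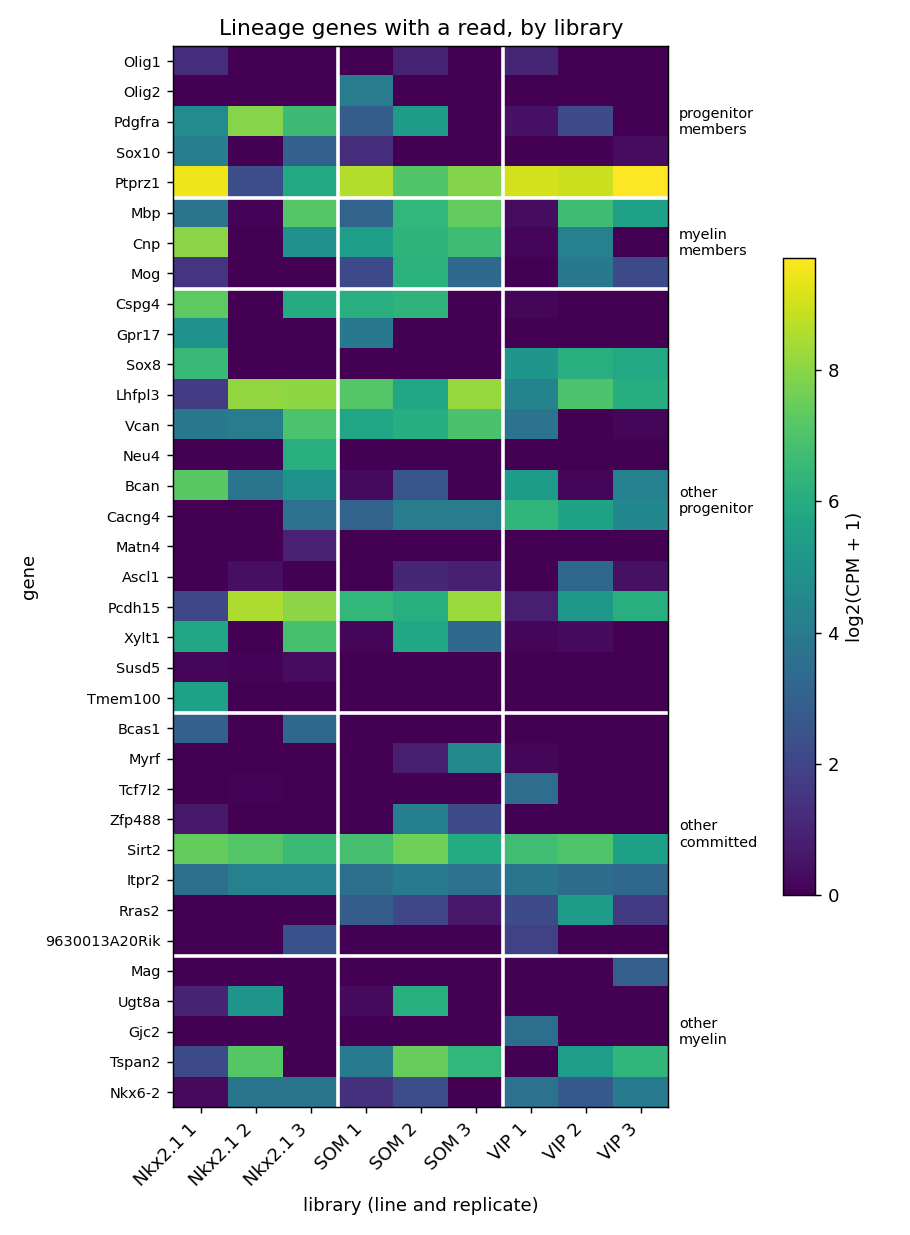
Level as log2(CPM + 1) (colour) of 35 of the 36 lineage genes with at least 1 read (vertical axis) in each library (horizontal axis), with white lines between the gene lists and between the lines. Sox10, Cspg4 and Gpr17 share Nkx2.1 replicate 1, while the Nkx2.1 library with the highest Pdgfra, replicate 2, had no read of these 3 genes but 359 CPM of Pcdh15 and 277 CPM of Lhfpl3, against 3.32 and 2.30 CPM in replicate 1.

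Of 10 genes of committed cells, 8 had reads and 3 were tested (Sirt2, Itpr2 and Rras2), with none called by edgeR. At an unadjusted p under 0.05 there was 1, Rras2, lower in Nkx2.1 than in both other lines, and 0 in SOM against VIP. Sirt2, a deacetylase also found in neurons, and Itpr2, a calcium release channel, had reads in all 9 libraries, from 45.3 to 186 CPM and from 8.74 to 18.9 CPM. Rras2, a small GTPase, had no read in Nkx2.1, against 6.32, 3.24 and 0.583 CPM in the SOM replicates and 3.59, 40.4 and 2.098 CPM in the VIP replicates (edgeR adjusted p = 0.328 and 0.172 for Nkx2.1 against SOM and against VIP). Myrf, the transcription factor that starts myelin gene expression, stood at 22.8 CPM in SOM replicate 3, at 0.771 CPM in SOM replicate 2 and 0.124 CPM in VIP replicate 1, and had 0 reads in the other 6 libraries. Enpp6 and Bmp4 had none in all 9.

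The other myelin genes were mostly unseen. Of 15, 9 had no read in any library: Mobp, Cldn11, Mal, Opalin, Ermn, Aspa, Fa2h, Gjc3 and Trf. For Opalin and Trf the 20 nearest protein-coding genes counted on the same strand also had no read in any library, so their zeros carry no level. Only Tspan2 and Nkx6-2 were tested, and neither was called. Ugt8a, which makes the myelin lipid galactosylceramide, stood at 31.4 CPM in Nkx2.1 replicate 2 and 67.1 CPM in SOM replicate 2, and at 0.922 CPM or less elsewhere. Tspan2, a tetraspanin, reached 141 CPM in Nkx2.1 replicate 2 and 175 CPM in SOM replicate 2, the same pair of libraries, and had 0 reads in Nkx2.1 replicate 3 and VIP replicate 1. Nkx6-2, a homeodomain factor of myelinating cells, ranged from 0.184 to 12.7 CPM in Nkx2.1, from 0 to 3.86 CPM in SOM and from 5.73 to 14.7 CPM in VIP libraries.

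The genes whose levels were spread over the libraries most like the sum of Olig1, Olig2, Pdgfra and Sox10 were sought among 12057 genes with at least 100 reads, by cosine similarity of CPM over the 9 libraries. Pdgfra itself reached 0.996, since it made up most of the sum, while Sox10 reached 0.30, Ptprz1 0.143 and Olig2 0.086. Outside the lists the nearest were Mpp5 (0.986), Rbks (0.985), 5830418K08Rik (0.983), Rgs2 (0.981) and Leng1 (0.98), all highest in Nkx2.1 replicate 2. A similarity over 0.95 was reached by 56 genes. Among the myelin members Mbp reached 0.274, Cnp 0.23 and Mog 0.153.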

How the data were processed

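Each library had its own deposited table of raw counts by gene symbol. The submitters' processing notes list TopHat2 2.0.9, DESeq2 and mm10 without saying how each was used. For the counting program and strand setting, the sources used here give nothing. The 5 summary entries that name no gene, 83.6% to 85.2% of each table, were left out of library sizes and tests.

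CPM were computed over gene entries. Differential expression used edgeR 4.0.16 in R 4.3.3: TMM normalization, filterByExpr by line (minimum count 10), all 9 libraries in 1 quasi-likelihood fit with line as the only term, and Benjamini-Hochberg adjustment over the 10728 genes tested at a threshold of 0.05. The standard error is the size of the log2 fold over the square root of F. The code was tested on simulated data. DESeq2 1.42.0 was an alternative. Coordinates and exon lengths are from GENCODE M21 (GRCm38, the same build as mm10).

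The members and lists were chosen with earlier results of these data known. Named were all members, the 4 most abundant genes of each of 3 further lineage lists (1 of these is not reported here), any called, and the 5 most like the progenitor sum; Gpr17, Bcas1, Zfp488, Tcf7l2, 9630013A20Rik, Cacng4, Sox8, the genes at 0 in all libraries and single marker genes were named after their values were seen. Intervals and floors cover counting error only: with no molecular identifiers, reads are not independent molecules.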

Additional observations from a re-analysis of the deposited data

How the results depend on the processing

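No member was called in any comparison under RLE normalization, without the low-count filter, with only the 2 lines compared, with the replicate block or without any 1 of the 9 libraries; the DESeq2 Wald test called 1 member in Nkx2.1 against VIP (Pdgfra). Of 250 fold values of members under these settings, 241 kept direction and side of the threshold and 8 reversed. Same-numbered libraries of different lines had correlated deviations of -0.041 to 0.067, against -0.071 to 0.062 for differently numbered ones. The highest value was that of SOM and VIP replicates 1, but 0 of 9 libraries correlated best with their own number in both other lines. The numbers were thus not taken to pair the libraries. With the replicate block the fold of Ptprz1 in Nkx2.1 against SOM was -1.06, and 4 genes in all were called in Nkx2.1 against SOM (10 without the block), 11 in Nkx2.1 against VIP (33) and 4 in SOM against VIP (8). In this order DESeq2 called 758, 1259 and 380 genes and the fits of only the 2 lines compared 5, 20 and 32; without the filter SOM against VIP gave 21. Without 1 library the counts were 0 (SOM replicate 2) to 37 (Nkx2.1 replicate 1), 12 (VIP replicate 3) to 48 (Nkx2.1 replicate 1) and 3 (SOM replicate 2 or 3) to 17 (Nkx2.1 replicate 2). Folds that reversed without a library ranged from -2.96 to 0.91 (Ptprz1), -2.27 to 1.28 (Cnp) and -3.44 to 0.20 (Mbp) in Nkx2.1 against SOM, from -2.596 to 1.26 (Mbp) in Nkx2.1 against VIP, and from -2.94 to 5.17 (Sox10) and -0.065 to 1.97 (Mbp) in SOM against VIP. The cause of these changes was not tested. Levels moved by less than their SD under TMM or RLE scaling. Leaving out 1 of 3 libraries cannot move a mean by 1 SD, so that is no sign of stability: without replicate 1 the Nkx2.1 mean of Ptprz1 was 31.6 CPM (254 with it) and that of Cnp 15.3 CPM (96.2), without replicate 3 that of Mbp was 6.17 CPM (50.4), and without replicate 2 the VIP mean of Cnp was 0.0619 CPM (5.998). By counting error alone, a level of 0 at these depths allows up to 0.463 CPM. That leaves out the spread between libraries. Of the genes within 1.5-fold of the mean level of Cnp, 58.8 CPM over all libraries, 34.0% had a 0 in at least 1 library.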

Other observations

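Genes of cell division, which dividing progenitors express, differed from library to library and from gene to gene. The 9 genes of the list summed to 275, 2.41 and 42.4 CPM in Nkx2.1 replicates 1, 2 and 3, to 93.4, 57.5 and 5.24 CPM in those of SOM and to 147, 1.12 and 3.06 CPM in those of VIP. Top2a, a topoisomerase of dividing cells, stood at 33.5 CPM in Nkx2.1 replicate 1, 27.8 and 31.5 CPM in SOM replicates 1 and 2 and 48.2 CPM in VIP replicate 1, and at 0.466 CPM or less in the other 5 libraries. Mki67, a marker of cycling cells, stood at 146 CPM in Nkx2.1 replicate 1 and 89.2 CPM in VIP replicate 1, and at 0.117 CPM or less elsewhere. Cdk1, the mitotic kinase, stood at 37.4 CPM in Nkx2.1 replicate 1 and 14.4 CPM in SOM replicate 1, at 1.98 CPM in SOM replicate 3 and at 0 elsewhere. Pcna, the sliding clamp of DNA replication, was highest in Nkx2.1 replicate 3 (42.4 CPM), and Mcm2, of the replicative helicase, in SOM replicate 1 (44.4 CPM). These genes were named after their values were seen, and no relation to the lineage markers was tested.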
